A study of Rattus norvegicus with 22 samples.

Results

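The microRNAs (miRNAs) described here, miR-1298, miR-448, miR-204 and miR-211, are known from the choroid plexus. They were taken by the number in their names, in either arm, and 5 of the 468 miRNA names in the deposited tables matched: rno-miR-1298, rno-miR-448-3p, rno-miR-448-5p, rno-miR-204-5p and rno-miR-211-5p, written below without the prefix for rat. miR-1264, also sought, matched none. The group was chosen by its RPM values in these libraries, namely its high levels in CPF replicates 7, 8 and 9 and its difference between treated and control rats. Every comparison of its members between the groups is therefore a description, given without a p-value.

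Small RNA was sequenced from the CA1 region of the hippocampus of male Long Evans rats, an outbred pigmented laboratory strain, at 14 weeks of age. The 11 treated rats (CPF) had received chlorpyrifos, an organophosphate insecticide that blocks acetylcholinesterase, at 10 mg/kg of body weight daily for 21 days by injection under the skin. The 11 control rats had received the peanut oil vehicle in the same way and for as long. Some rats of the study went through fear conditioning and others did not, which the labels do not resolve by library. They also name no animals, so errors measure the spread between these libraries.

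The choroid plexus is the folded secretory epithelium that makes cerebrospinal fluid in the brain ventricles, and the lateral ventricle borders the hippocampus. Its epithelial cells are known for very high expression of the serotonin receptor gene Htr2c and of the cation channel gene Trpm3. Some miRNAs are made from the introns of such host genes, cut first into a hairpin and then into a mature strand of either arm (5p or 3p), and a mature strand recognises its targets mainly through the seed near its 5′ end. Htr2c hosts miR-448 and miR-1298, Trpm3 hosts miR-204, and Trpm1, a related channel gene best known from pigment cells and the retina, hosts miR-211.

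In the RefSeq gene table of the rat assembly GRCr8, the genes Mir764, Mir1912, Mir1298 and Mir448 lie in this order within the span of Htr2c on chromosome X. Mir204 lies within Trpm3 and Mir211 within Trpm1, both on chromosome 1. None of the 4 member genes overlapped another miRNA gene there. All 5 member names had a mature RefSeq sequence, shown here 5′ to 3′ with the seed, bases 2 to 8, in capitals, since the seeds show which members could share targets.
miR-1298: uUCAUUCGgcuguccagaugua
miR-448-3p: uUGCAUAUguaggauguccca
miR-448-5p: aACAUCCUgcauagugcugcca
miR-204-5p: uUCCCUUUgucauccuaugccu
miR-211-5p: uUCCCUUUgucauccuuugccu
miR-204-5p and miR-211-5p had the same seed and 21 of 22 bases in common, with the single substitution A17U counted from the 5′ end of miR-204-5p. The seeds of miR-1298, miR-448-3p and miR-448-5p were shared by no other rat miRNA in the RefSeq table. The 5 names thus held 4 different seeds, and the 2 Htr2c-hosted genes had none in common.

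Levels were deposited as RPM, the reads of a miRNA scaled to a fixed library total. The whole-read steps in the low values put the depth at 47844 to 94980 miRNA reads per library, so that 3 reads, taken here as the floor of quantification, were worth 31.6 to 62.7 RPM. All values of the 5 members came out as whole reads to within 0.0004 of a read. Intervals and the floor cover counting error only, because PCR reads without molecular identifiers are not independent molecules. Between 257 and 310 names were above 0 in a library. Markers of the labelled tissue were detected at uneven levels. miR-9a-5p, a miRNA of the nervous system, was at 34986 to 60622 RPM in the 22 libraries and the neuronal miR-128 at 5184 to 10551 RPM. Of other neuronal markers, miR-138-5p had a mean of 2291 RPM and miR-124-3p of 748 RPM (398 to 1126 RPM). The vessel wall miR-143-3p had a higher mean than these, 263757 RPM.

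CPF replicates 7, 8 and 9 stood apart in these miRNAs, and the main results for the members and lists are given with and without them. The members together took 263.6 to 599 RPM in the 11 control libraries (median 465) and 311 to 737 RPM in the 8 other CPF libraries (median 605). In CPF replicates 7, 8 and 9 they took 1497, 3909 and 6103 RPM, or 0.150%, 0.391% and 0.610% of all miRNA reads. The highest share in the other 19 libraries was 0.0737%, in CPF replicate 1. The mean was 454 ± 108 RPM in control (SD, n = 11) and 1438 ± 1859 RPM in CPF (SD, n = 11), and 538 ± 168 RPM in CPF without the 3 libraries (SD, n = 8). The codes of these 3 libraries begin with the digit 6, as do those of CPF replicates 10 and 11, which were at 609.6 and 414 RPM. The meaning of that digit is missing from the labels.

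**Figure D1:**
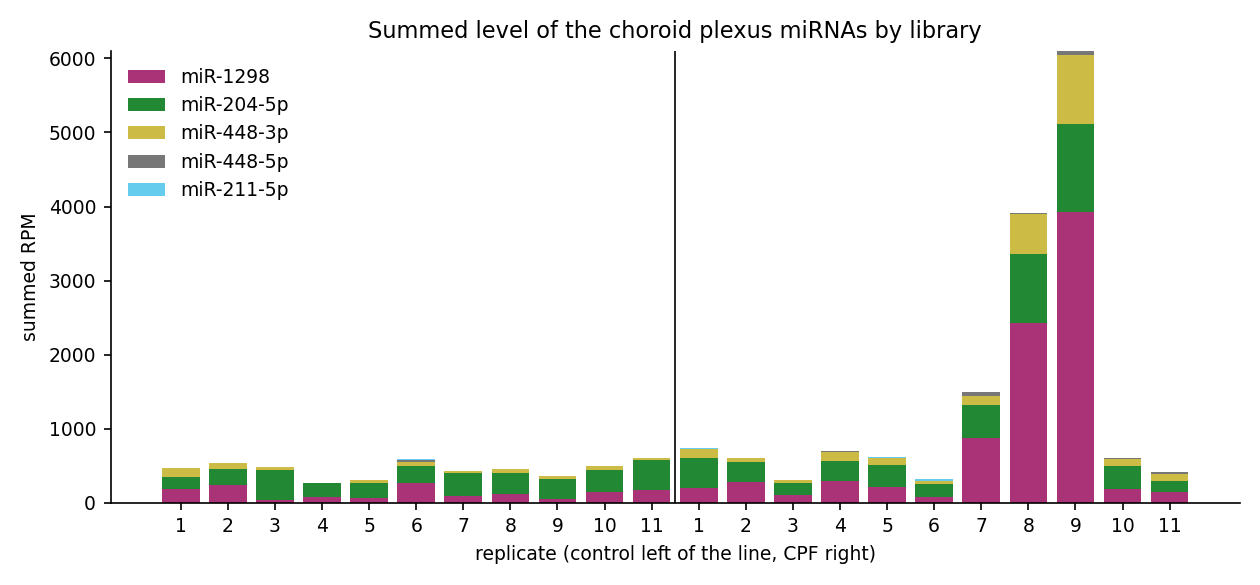
Summed RPM (vertical axis) of the 5 member miRNAs in each of the 22 libraries (horizontal axis, replicate number, control left of the line and CPF right), with colours for the members. CPF replicates 7, 8 and 9 reach 1497, 3909 and 6103 RPM, while the other 19 libraries lie between 263.6 and 737 RPM.

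The depth of these libraries was 74832, 80834 and 47844 reads, against 53748 to 94980 in the other 19, so CPF replicate 9 was the shallowest of all and the other two lay within that range. They showed 293, 292 and 259 names above 0, within the 257 to 310 of the others. Across the 19 other libraries the Spearman correlation with depth was 0.03 for miR-1298, 0.37 for miR-448-3p and -0.01 for miR-204-5p. The part of depth in the differences was not tested. In a bulk sample a different number of cells of a type and a different amount of RNA per cell cannot be told apart.

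miR-1298, made from an intron of Htr2c, was the member that varied most in reads. In control libraries it ranged from 37.2 to 267 RPM with a median of 113 RPM, which was 2 to 19 reads per library. In CPF libraries it ranged from 83.1 to 3929 RPM with a median of 220.3 RPM. The 3 highest were CPF replicates 7, 8 and 9 with 869 RPM (65 reads, exact 95% interval of the share 670.4 to 1107 RPM), 2425 RPM (196 reads, 2098 to 2789 RPM) and 3929 RPM (188 reads, 3389 to 4532 RPM). The next highest library of either group, CPF replicate 4, had 292 RPM from 21 reads, with an interval of 181 to 446 RPM. The high values of the 3 libraries were part of the choice of the group, so the intervals are a description only. The rank of miR-1298 among all names was 60, 34 and 26 in the 3 libraries and 103 or further down in the 19 others.

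The groups overlapped in miR-1298. In 5 of 11 CPF libraries it was above the highest control, or in 2 of 8 without the 3 libraries. The control median was passed in 9 of 11 and 6 of 8. Over all 273 tested miRNAs the median of such counts was 6 of 11. The mean was 133 ± 77.6 RPM in control and 795 ± 1243 RPM in CPF (SD, n = 11 each), a 5.99-fold ratio of means that was 1.44-fold without the 3 libraries (190.4 ± 75.9 RPM, SD, n = 8). On the log2(RPM + 1) scale the CPF minus control difference fitted by limma was 1.61 (SE 0.526, 95% interval 0.53 to 2.69), and 0.65 without them (SE 0.346, interval -0.06 to 1.36). Leaving out only CPF replicate 9 gave 1.26.

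miR-448-3p, the major arm of the second Htr2c-hosted hairpin, was lower in reads. In control libraries it ranged from 0 to 113 RPM with a median of 41.3 RPM and at most 8 reads. For the 0 of control replicate 4 the exact 95% interval reached 48.6 RPM. In CPF libraries it ranged from 40.5 to 920 RPM with a median of 92.8 RPM. CPF replicates 8 and 9 held 532 RPM (43 reads, exact 95% interval 385 to 717 RPM) and 920 RPM (44 reads, 668 to 1234 RPM). CPF replicate 7, by contrast, had 120.3 RPM from 9 reads (interval 55.0 to 228 RPM), next to 116 RPM in CPF replicate 1 and 113 RPM in control replicate 1. Only CPF replicates 8 and 9 thus lay well above the other libraries in this miRNA.

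The highest control was exceeded in 4 of 11 CPF libraries, or 1 of 8 without CPF replicates 7, 8 and 9. The control median of 41.3 RPM, which was 3 reads in control replicate 5, was exceeded in 10 of 11 and 7 of 8. Over all 273 tested miRNAs the median of such counts was 6 of 11. Mean levels were 47.4 ± 31.1 RPM in control and 200.4 ± 275 RPM in CPF (SD, n = 11 each), a ratio of 4.23, and 79.1 ± 30.0 RPM in CPF without the 3 libraries (SD, n = 8), a ratio of 1.67. The log2 difference from limma was 1.83 (SE 0.622, interval 0.56 to 3.10), and 1.18 without them (SE 0.616, interval -0.09 to 2.45). The control mean corresponded to 3.36 reads, so a single control library at 0 weighs on this value. With a pseudocount of 14 RPM, about the worth of a read, the difference was 1.33 (SE 0.411).

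The opposite arm, miR-448-5p, was close to absent. The Mir448 hairpin is shown to place both arms, which are in capitals, the 5p arm first.
Mir448: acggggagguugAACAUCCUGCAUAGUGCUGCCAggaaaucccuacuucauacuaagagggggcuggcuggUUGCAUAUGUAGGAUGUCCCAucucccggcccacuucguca
The 3p arm had 0 to 8 reads per control library and 3 to 44 per CPF library, and the 5p arm 0 to 2 and 0 to 4 in the libraries that list it, since the shortened table of control replicate 2 lacks its name. The 5p arm was above 0 in 1 of 10 control libraries, with 2 reads in control replicate 6, and in 7 of 11 CPF libraries. Its 13 reads in CPF libraries included 4, 1 and 3 reads in CPF replicates 7, 8 and 9 (53.5, 12.4 and 62.7 RPM). Both group means, 2.81 ± 8.89 RPM (SD, n = 10) and 17.4 ± 21.6 RPM (SD, n = 11), lay under the floor, so no fold change is given. CPF replicates 7 and 9 were the only libraries with 3 or more reads of this arm.

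miR-204-5p, from the Trpm3 intron, was the most abundant member in control libraries and the least variable. Its control values ran from 169 to 409 RPM with a median of 274 RPM, and its CPF values from 149 to 1191 RPM with a median of 294 RPM. CPF replicates 7, 8 and 9 had 454 RPM (34 reads, exact 95% interval 315 to 635 RPM), 940.2 RPM (76 reads, 741 to 1177 RPM) and 1191 RPM (57 reads, 903 to 1543 RPM). They were again the highest of all 22 libraries, but 454 RPM was near the 411 RPM of CPF replicate 1 and the 409 RPM of control replicate 3, within counting error.

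The highest control of miR-204-5p was exceeded in 4 of 11 CPF libraries and in 1 of 8 without CPF replicates 7, 8 and 9, and 3 CPF libraries lay below the lowest control. The mean was 269.8 ± 83.2 RPM in control and 421 ± 337.6 RPM in CPF (SD, n = 11 each), and 256 ± 91.1 RPM in CPF without the 3 libraries (SD, n = 8). The ratio of means went from 1.56 to 0.949. limma gave a log2 difference of 0.37 (SE 0.287, interval -0.22 to 0.96), and of -0.10 without the 3 libraries (SE 0.214, interval -0.54 to 0.34). The direction thus rested on those libraries. Without CPF replicate 8 alone it was 0.22, and without CPF replicate 9 alone 0.19.

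miR-211-5p, which has the seed of miR-204-5p, was at the limit of detection. It was above 0 in 1 of 11 control libraries (14.1 RPM in control replicate 6) and in 3 of 11 CPF libraries (10.53, 12.2 and 16.6 RPM in CPF replicates 1, 5 and 6), each time with 1 read. In CPF replicates 7, 8 and 9, where miR-204-5p was highest, it was at 0, which allows up to 40.1, 37.1 and 62.7 RPM at 3 reads. Both group means were under the floor, and no fold change is given. Over all 22 libraries miR-204-5p had 534 reads and miR-211-5p had 4. The treatment of reads that match more than a single name is not given, so how reads were assigned between this near-identical pair is unknown and was not tested. The values of both came out as whole reads in every library.

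**Figure D2:**
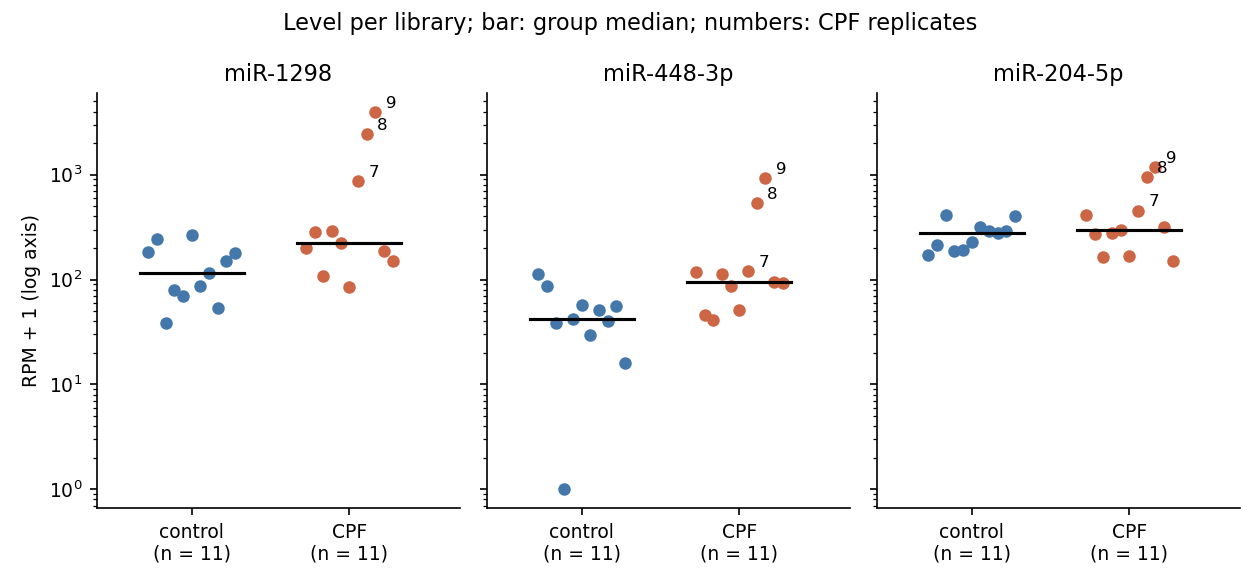
RPM + 1 on a log axis for miR-1298, miR-448-3p and miR-204-5p in each control (n = 11) and CPF (n = 11) library, with a bar at the group median and the numbers of CPF replicates 7, 8 and 9. The 3 numbered libraries are the highest in each panel, by far in miR-1298 (869, 2425 and 3929 RPM) and only narrowly for CPF replicate 7 in the other 2 panels.

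The central comparison of the study asked which miRNAs differ after chlorpyrifos. Among the miRNAs that reached 10 RPM in 11 or more libraries, limma called 2 of 273 at an adjusted p under 0.05, or 0.733%. These were miR-132-3p and miR-212-5p, neither of them a member. Of the 5 members 3 passed the filter on low values (miR-1298, miR-448-3p and miR-204-5p), and 0 of those 3 were called, while 18 of 273 miRNAs had an unadjusted p under 0.05. On whole reads recovered from the RPM, edgeR called 4 of 140 (2.86%), with 1 of 2 tested members (miR-1298) among them and, besides the pair called by limma, miR-409b. DESeq2 called 5 of 418 (1.2%), with 2 of 4 tested members (miR-1298 and miR-448-3p) and the same 3 others. The log2 difference of miR-1298 was 2.56 with edgeR and 2.66 with DESeq2, or 0.53 and 0.50 without CPF replicates 7, 8 and 9. Without CPF replicates 7, 8 and 9, limma, edgeR and DESeq2 each called 0 members. Since the contrast was known when the members were chosen, nothing is read from these counts.

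By log2 difference miR-448-3p ranked 3 of 273, miR-1298 ranked 5 and miR-204-5p ranked 55 from the top. Without the 3 libraries, among the 268 of these miRNAs still tested, the ranks were 8, 27 and 205. The median over all 273 was 0.02, with 53.1% above 0. The members named here therefore differed among themselves, with miR-204-5p moving to the lower part of the order. When the libraries were compared by the first digit of their codes, the log2 difference of miR-1298 was 0.86 for codes 3 against 1, 0.52 for 3 against 4, 2.57 for 6 against 4 and 2.91 for 6 against 1. For miR-204-5p these were 0.18, -0.24, 0.69 and 1.10, and for miR-448-3p 1.33, 0.86, 2.52 and 3.00. All 3 high libraries carry the digit 6.

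**Figure D3:**
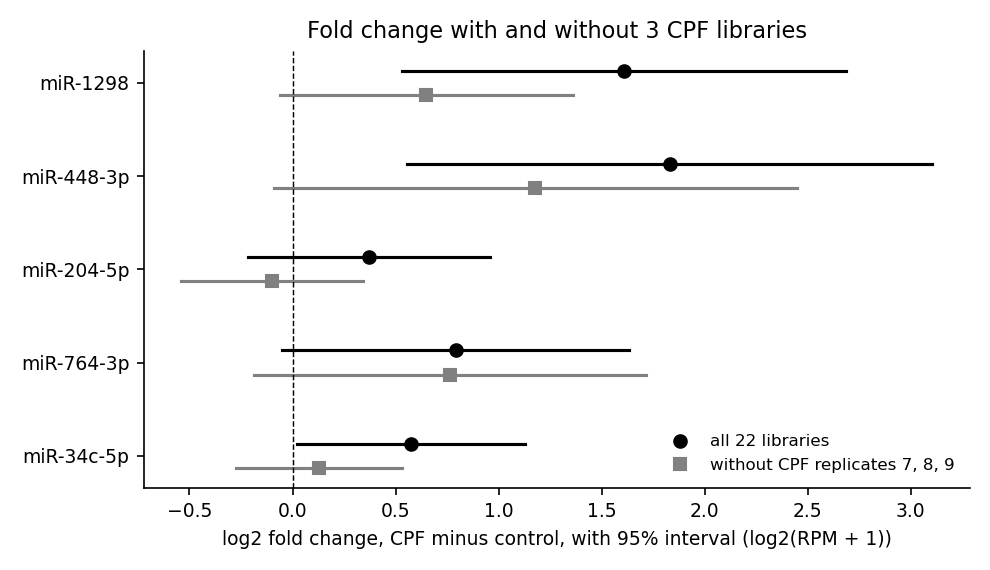
Difference between CPF and control on the log2(RPM + 1) scale (horizontal axis) with the 95% interval from limma, for the 3 tested members, miR-764-3p and miR-34c-5p. Black points use all 22 libraries and grey points leave out CPF replicates 7, 8 and 9. For miR-204-5p the point moves from 0.37 to -0.10 and for miR-1298 from 1.61 to 0.65.

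The spread of the members inside a group was also compared with that of all 273 tested miRNAs. In control libraries the variance of the reads of miR-1298 was 3.16 times their mean, and the median over all tested miRNAs was 1.49. Counting alone would give a ratio near 1 at equal depth. The reads were not scaled for depth, so the ratio and the ranks by it also depend on depth and on abundance. For miR-448-3p this ratio was 1.503 and for miR-204-5p 1.22 in control libraries. In CPF libraries the ratios were 98.7, 17.4 and 14.4, against a median of 1.75. Without CPF replicates 7, 8 and 9 they were 2.25, 1.41 and 4.36, against a median of 1.56. By this ratio miR-1298, miR-448-3p and miR-204-5p ranked 58, 135 and 165 of 273 in control libraries, 12, 30 and 35 in CPF libraries, and 93, 150 and 56 in CPF libraries without the 3. By coefficient of variation they ranked 2, 5 and 50 in CPF libraries and 117, 127 and 136 without the 3. In control libraries miR-1298 ranked 88 and miR-448-3p 73 by that measure, with miR-204-5p further down. The members were chosen for high levels in CPF replicates 7, 8 and 9. Their wide spread in CPF libraries, and its fall without the 3, follow from that choice and are a description only.

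The members did not keep a constant proportion to each other. The ratio of miR-1298 to miR-204-5p was 0.0909 to 1.19 in control libraries (median 0.429) and 0.487 to 1.06 in the 8 other CPF libraries (median 0.708). In CPF replicates 7, 8 and 9 it was 1.91, 2.58 and 3.30, above each of the other 19 libraries. In the 19 others miR-1298 exceeded miR-204-5p by at most 1.19-fold. miR-1298 made up 58.0%, 62.0% and 64.4% of the members' RPM in the 3 libraries and 7.69 to 47.5% in the others.

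**Figure D4:**
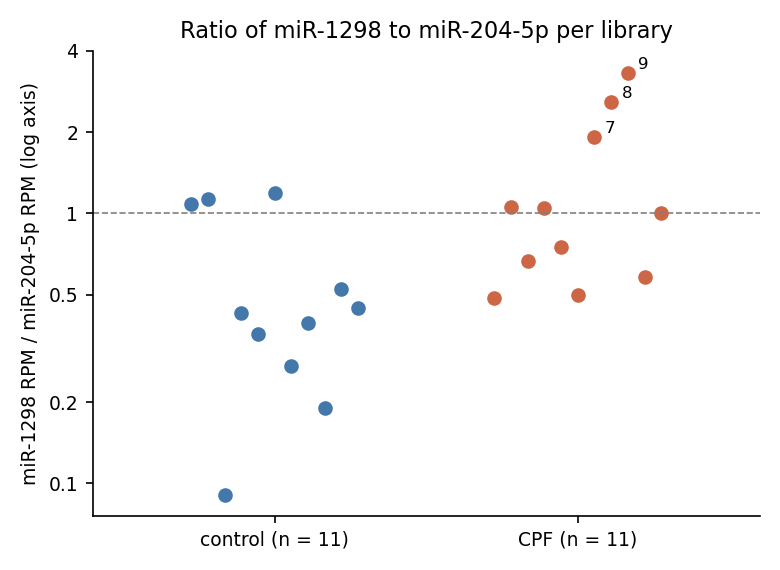
Ratio of miR-1298 RPM to miR-204-5p RPM on a log axis in each control (n = 11) and CPF (n = 11) library, with a dashed line at 1. CPF replicates 7, 8 and 9, at 1.91, 2.58 and 3.30, lie above the other 19 libraries, whose highest ratio is 1.19.

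The 2 Htr2c-hosted members also varied in proportion. Over all control reads miR-1298 stood to miR-448-3p as 104 to 37, a ratio of RPM sums of 2.80, and over the 8 other CPF libraries as 117 to 50, a ratio of 2.41. In single libraries the ratio ran from 1.0 in control replicate 3 to 12.0 in control replicate 11, which had 1 read of miR-448-3p, and control replicate 4 had none. CPF replicates 7, 8 and 9, at 7.22, 4.56 and 4.27, lay inside that range, as did CPF replicate 2 at 6.33. Across the 19 other libraries the Spearman correlation of miR-1298 with miR-448-3p was 0.65 (Pearson 0.42 on the log2 scale), and in the 11 control libraries 0.61 (Pearson 0.30). miR-204-5p had a correlation of 0.12 with miR-1298 and of -0.01 with miR-448-3p across the same 19 libraries, and of -0.27 and -0.43 in control libraries. These values describe libraries with 2 to 21 reads of miR-1298 and 0 to 11 of miR-448-3p, and counting error weakens such correlations.

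The other miRNAs of the Htr2c span offer a comparison within the same host gene. The deposited names held miR-764-3p and miR-764-5p, and none for Mir1912. The mature miR-764-3p, from the first of the 4 genes in the span, has a seed of its own.
miR-764-3p: gAGGAGGCcauaguggcaacugu
Its mean was 31.9 ± 21.3 RPM in control and 51.8 ± 26.0 RPM in CPF (SD, n = 11 each), near or under the floor, with at most 6 reads in a library. In CPF replicates 7, 8 and 9 it reached 26.7, 49.5 and 83.6 RPM, and the 19 others spanned 12.6 to 83.4 RPM. The libraries highest in miR-1298 were thus inside or level with the range of the others in miR-764-3p. Its log2 difference was 0.79 (SE 0.412) with all libraries and 0.76 (SE 0.462) without the 3. miR-764-5p had 1 read in all libraries. Of the Htr2c-hosted list, 3 of 5 names were tested and 0 passed, with a median log2 difference of 1.61, or 0.76 without the 3 libraries.

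Of the markers of ciliated epithelium, which lines the ventricles as ependyma, miR-34c-5p was also high in CPF replicates 7, 8 and 9. This miRNA, abundant in ciliated cells, was at 682, 990 and 1839 RPM in CPF replicates 7, 8 and 9 and at 149 to 509 RPM in the others. Of the 4 names of this list, 4 were tested and 0 passed (median log2 difference 1.21). For miR-34c-5p alone the difference was 0.57 (SE 0.269), and 0.13 without the 3 libraries. The other 3 names had group means under the floor, so their log2 differences and the list median are not read as changes. Without the 3 libraries the median was 0.13, but miR-34b-3p, at 2.88 with all libraries from at most 3 reads in any, was then not tested. The 2 medians thus cover different names. Their summed level was 167 to 509 RPM in control, 265 to 555 RPM in the 8 other CPF libraries and 788, 1064 and 1902 RPM in the 3 libraries. The other 3 names had at most 5 reads in any library, too few to say whether they followed miR-34c-5p. miR-34c-3p was above the 19 others in CPF replicate 8, and its log2 difference went from 0.77 to -0.10 without the 3 libraries. miR-34b-3p was at 40.1, 0 and 20.9 RPM in the 3 libraries (others up to 30.0), miR-34b-5p at 26.7, 12.4 and 0 RPM (others up to 41.7) and miR-34c-3p at 40.1, 61.9 and 41.8 RPM (others up to 57.7). The sum of the list is thus mostly miR-34c-5p, and no name of the miR-449 family was listed. Relative to the median of the other 19 libraries, the ciliated list was 2.31, 3.12 and 5.57 times as high in the 3 libraries, the Htr2c-hosted list 3.896, 11.0 and 18.2 times, and the miR-204 and miR-211 list 1.66, 3.43 and 4.35 times.

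The list of thalamus, hypothalamus and retina or pineal miRNAs had 6 names, of which 3 were tested and 0 passed (median log2 difference -0.07). Its most abundant name, miR-182, was at 1590, 2400 and 3532 RPM in CPF replicates 7, 8 and 9 and at 493 to 2091 RPM in the others. CPF replicate 7 was thus inside the range of the others. miR-7a-1-3p (209 to 254 RPM in the 3 libraries) and miR-7a-2-3p (13.4 to 24.7 RPM) stayed within theirs. miR-7a-5p, with at most 3 reads in a library, was at 0, 37.1 and 0 RPM in the 3 libraries (others up to 28.2). miR-183-5p, of the same cluster as miR-182, was at 0 in all 22 libraries, and miR-96-5p had at most 1 read.

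The epithelial miR-200 family had 1 of 4 names tested and 0 passed. Its main name, miR-141-3p, reached 66.8, 86.6 and 229.9 RPM, and the others spanned 29.9 to 149.5 RPM, while miR-429, miR-200a-3p and miR-200b-3p had at most 2 reads in a library. The neuron list summed to 64130.3, 63909 and 56015 RPM against 53676 to 78758 RPM, with 0 of 17 tested names passed and a median log2 difference of 0.01. Its most abundant names were miR-9a-5p, miR-128 and miR-9a-3p, and miR-9a-3p, at 2739, 2412 and 1902 RPM, lay below the 2918 to 3831 RPM of the other 19 libraries. miR-137-3p, at 174 RPM in CPF replicate 7, was also below the 210.2 RPM or more of the others. miR-128 was at 5184 RPM in CPF replicate 9, against 5528 RPM or more in the 19 others. There miR-128-3p was at 272 RPM, against 432 RPM or more in the 19 others.

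In CPF replicate 7 miR-219-2-3p, at 1373 RPM, was above the 1335 RPM or less of the 19 others. The oligodendrocyte list (miR-338-3p, miR-338-5p and miR-219-2-3p the most abundant) summed to 57177, 58529.5 and 44424 RPM in the 3 libraries, inside the 33453 to 90059 RPM of the others, with 0 of 4 tested names passed and a median log2 difference of -0.12. The vessel wall and endothelium list, led by miR-143-3p, miR-126a-3p and miR-126a-5p, summed to 285506, 282629 and 313435 RPM against 221152 to 295703 RPM, with 0 of 4 passed and a median of 0.04. CPF replicate 9 held the highest miR-143-3p of all libraries, 311596 RPM. In the microglia and blood list (miR-146a-5p, miR-142-5p and miR-142-3p) 0 of 4 passed, with a median of -0.18, and its sums of 321, 222.7 and 272 RPM were inside the 135 to 370 RPM of the others. Within it, CPF replicate 9 had miR-142-5p at 0 (19 others 12.6 RPM or more) and miR-142-3p at 62.7 RPM (19 others up to 50.4). Both were at or under the floor of that library. The fibroblast and meninges list, with miR-10a-5p, miR-199a-3p and miR-199a-5p, had sums of 213.8, 643 and 543 RPM, inside 92.8 to 747.5 RPM, and 0 of 2 passed, with a median of 0.15. Of the defining markers, miR-223-3p was at 0 in 21 of 22 libraries, and miR-451-5p had at most 1 read in any. Without CPF replicates 7, 8 and 9 the median log2 difference was 0.05 for the neuron list, where miR-138-2-3p was no longer tested. It was -0.15 for the oligodendrocyte list, 0.07 for vessel wall and endothelium, -0.20 for microglia and blood and 0.19 for fibroblast and meninges. For the thalamus, hypothalamus and retina or pineal list it was -0.05, and for the miR-200 family 0.40, or 0.44 with all libraries. The part of other cell types in the difference between the groups was not tested.

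**Figure D5:**
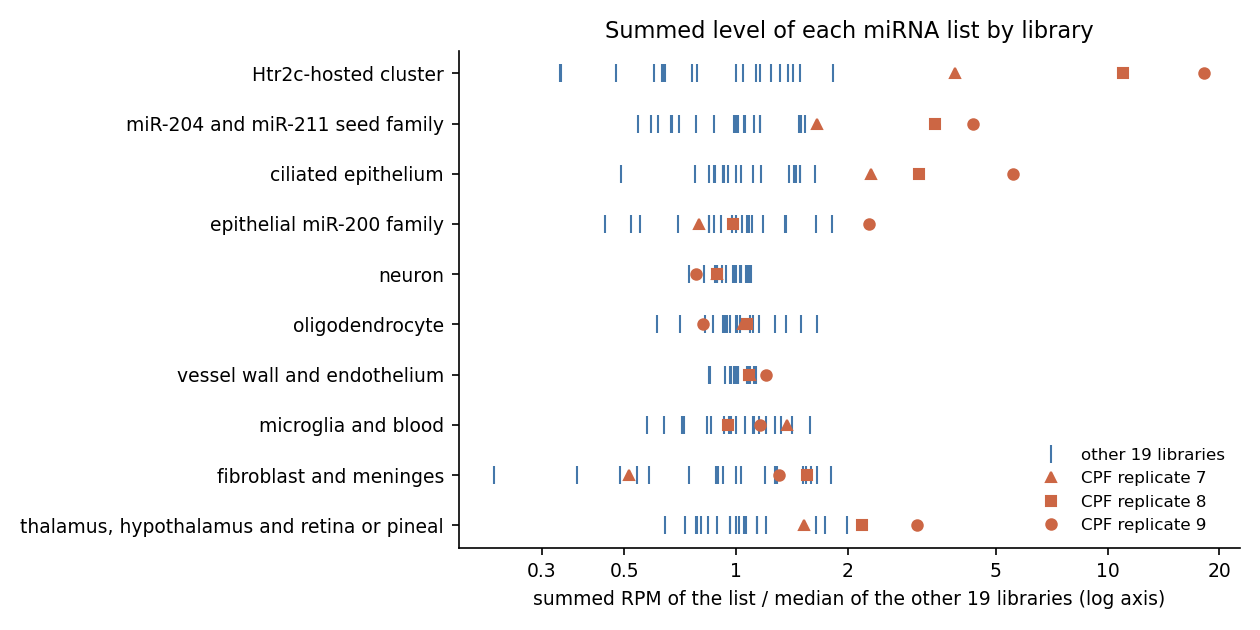
Summed RPM of each miRNA list divided by the median of the 19 libraries other than CPF replicates 7, 8 and 9 (log axis), with 1 tick for each of the 19 libraries and a symbol for each of the 3. The Htr2c-hosted list reaches 3.896, 11.0 and 18.2 times that median and the neuron list 0.892, 0.889 and 0.779 times.

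The miRNAs whose levels ran most like the members were sought among 261 others held by all libraries. Across the 19 libraries without CPF replicates 7, 8 and 9, the highest Spearman correlations with miR-1298 were those of miR-6315 (0.53), miR-3572 (0.52) and miR-103-3p (0.52). The first pair had control means of 11.3 and 7.57 RPM, under the floor. With miR-448-3p they were those of miR-103-3p (0.55), miR-542-3p (0.53) and miR-137-3p (0.51), and with miR-204-5p those of miR-374-5p (0.65), miR-24-3p (0.57) and miR-330-3p (0.51). Only miR-103-3p appeared for more than 1 member in the 19 libraries, and each of these values is among the highest of 261. By Pearson's r on the log2 scale in the same libraries, miR-1298 was at 0.42 with miR-448-3p and at 0.51, 0.53 and 0.51 with its 3 named miRNAs. miR-34c-5p, which was high in the same 3 libraries, had a correlation of 0.34 with miR-1298, 0.15 with miR-448-3p and -0.01 with miR-204-5p across the 19. Over all 22 libraries, which include the 3 high ones, miR-34c-5p (0.57), miR-375-3p (0.56) and miR-3572 (0.47) ran most like miR-1298. For miR-448-3p they were miR-132-3p (0.48), miR-34c-5p (0.46) and miR-410-3p (0.43). For miR-204-5p they were miR-24-3p (0.61), miR-298-5p (0.58) and miR-361-5p (0.52). miR-375-3p was at 120, 210 and 209 RPM in CPF replicates 7, 8 and 9 and at 0 to 165 RPM in the 19.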

How the data were processed

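Small RNA libraries (TruSeq, HiScanSQ) of 11 control and 11 CPF rats were compared. The authors deposited 1 table per library with RPM (reads scaled to a fixed library total) per miRNA name, per the file headers. The submitters' processing notes list rn4 as the build and, with no roles, Partek 6.6, Bowtie, CASAVA 1.8.2 and cutadapt 1.2. The sources used here give no miRNA annotation and no rule for multi-mapping or strand. GRCr8 tables from RefSeq served only for sequences and gene neighbours (410 of 468 names matched).

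The full tables have 484 rows, and 13 names on 29 rows were summed. The table of control replicate 2 ends after 448 rows, and its other 36 rows were treated as missing. Low values are multiples of a step. Since 1193 values were 2 steps and 54 only 1, 2 steps were counted as a read, and within 0.02 RPM 91.3 to 97.4% of low values were whole reads. limma 3.58.1 with a trend (R 4.3.3) was fitted to log2(RPM + 1), with Benjamini-Hochberg adjustment over the 273 miRNAs that reached 10 RPM in 11 or more libraries (the same share in smaller sets), two-sided, at 0.05. For edgeR 4.0.16 (quasi-likelihood) and DESeq2 1.42.0, recovered reads were rounded, over 432 names. Exact intervals are Clopper-Pearson (scipy 1.17.1). Tests were tried on simulated data.

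The members and lists were chosen with earlier results of these data known. By rule, all members are named, with the 3 most abundant names of each list, the 3 most similar miRNAs of each tested member, and any miRNA called. Replicate numbers are shared by both groups, but 2 of 11 same-numbered pairs correlated above 0.1, so they were not taken as pairs.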

Additional observations from a re-analysis of the deposited data

How the results depend on the processing

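limma called 2 miRNAs and 0 members. On recovered reads edgeR called 4 miRNAs with TMM and 4 with RLE, each with 1 member, and DESeq2 called 5 with 2 members. Fewer libraries (codes 3 against 1, 6 against 4, 3 against 4 and 6 against 1) gave 1 miRNA each and 0 members. The numbers tested were 273, 274, 286 and 277. For 3 against 4 the called miRNA was miR-34b-3p of the ciliated list. It had at most 3 reads in any library, so this call rests on values at or under the floor. Leaving out each library in turn gave 2 to 3 miRNAs (with miR-409b as the third) and 0 to 0 members. With the replicate block 2 miRNAs and 0 members were called, and the block changed no call. Its same-numbered correlations ran from -0.087 to 0.193, and 1 of 11 control libraries correlated best with its own number.

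The log2 difference of miR-1298 stayed above 0 in 39 of 39 alternatives (0.50 to 2.91) and that of miR-448-3p in 36 of 36 (0.74 to 3.00). These alternatives share libraries, and the members were chosen with this contrast known, so such counts are a description only. The log2 difference of miR-204-5p was above 0 in 35 of 39. It fell below without CPF replicates 7, 8 and 9 (-0.10 with limma, -0.0264 with edgeR and -0.0687 with DESeq2, the last 2 settings chosen after seeing the data) and for codes 3 against 4 (-0.24). The cause was not tested. Of 80 alternatives to the named likenesses 30 stayed close, 48 moved and 2 changed sign. For example, that of miR-374-5p to miR-204-5p went from 0.65 to 0.24 over all 22 libraries. With Pearson's r over all 22, the likeness of miR-103-3p to miR-1298 was -0.11 and that of miR-330-3p to miR-204-5p -0.072. The summed level of the members in CPF was 1438 RPM, and 538 RPM without the 3 libraries. At 3 reads the depth sets a floor of 31.6 to 62.7 RPM, so miR-211-5p and miR-448-5p could not be compared.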
